A study of Mus musculus with 3 samples.

Results

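The genes described here mark the mucous cells that line the stomach: the gastrokines Gkn1, Gkn2 and Gkn3, the trefoil factors Tff1, Tff2 and Tff3, and Psca, Vsig1, Capn8 and Capn9. They were taken as every gene spot on the arrays that carries 1 of these 10 gene names, which gave 12 probes and 21 spots per array, of 39429 probes and 43020 gene spots in all. This rule goes by gene name and uses no measured values, but the genes were chosen with earlier results of these data known. The tumours were 3 diffuse-type gastric cancers from mice aged 12 months with the genotype Atp4b-Cre+;Cdh1loxP/loxP;Trp53loxP/loxP, which the labels describe as separate biological replicates. They were set against 1 pool of 5 normal gastric mucosae from 12-month-old Atp4b-Cre-;Cdh1loxP/loxP;Trp53loxP/loxP mice, so both sides carry the floxed alleles and Cre is present in the tumours alone. The Atp4b promoter, that of a proton pump subunit, directs Cre to acid-secreting parietal cells, where the floxed segments of Cdh1 (E-cadherin) and Trp53 (p53) are removed. The normal mucosae, but not the tumours as far as the labels say, were freed of stroma by a mechanical step in 30 mM EDTA. Each tumour was labelled red (Cy5) and shared an array with the same green (Cy3) pool.

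The surface of the stomach is covered by pit cells, which renew quickly and secrete a mucus gel, and the neck of each gland holds mucous neck cells. Trefoil factors are small cysteine-rich peptides secreted along with mucins and known for epithelial repair: Tff1 comes from pit cells, Tff2 from neck cells and Tff3 mainly from intestinal goblet cells. Gastrokines are secreted proteins with a BRICHOS domain; Gkn1 and Gkn2 are pit-cell products, and in mice Gkn3 has been described in mucous neck cells. Capn8 and Capn9 are calcium-dependent proteases that form the gastric calpain complex of pit cells. Psca is a membrane-anchored protein of the Ly6 family, and Vsig1 is an immunoglobulin-domain membrane protein of gastric epithelium.

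The 3 gastrokine genes are neighbours on chromosome 6 and did not move together, so the sequence before each annotated start is shown. Each line holds the 250 bases before the start, from RefSeq on build GRCm38.p6, written 5′ to 3′ on the strand of the gene. Capitals mark matches to 4 short motifs searched on both strands, none of which overlaps another in these windows. They are TATAAA, the TATA box, then AGATAA, bound by GATA factors, then TGTTTNC, bound by forkhead factors, and CACCC, bound by Kruppel-like factors. Gkn1 lies on the minus strand at chr6:87350916-87351165, Gkn2 on the plus strand at chr6:87373115-87373364 and Gkn3 on the minus strand at chr6:87388936-87389185.
Gkn1: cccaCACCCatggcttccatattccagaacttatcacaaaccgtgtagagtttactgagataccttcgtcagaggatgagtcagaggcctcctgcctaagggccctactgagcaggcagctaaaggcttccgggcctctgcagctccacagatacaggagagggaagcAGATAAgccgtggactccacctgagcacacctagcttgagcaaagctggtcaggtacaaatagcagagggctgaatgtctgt
Gkn2: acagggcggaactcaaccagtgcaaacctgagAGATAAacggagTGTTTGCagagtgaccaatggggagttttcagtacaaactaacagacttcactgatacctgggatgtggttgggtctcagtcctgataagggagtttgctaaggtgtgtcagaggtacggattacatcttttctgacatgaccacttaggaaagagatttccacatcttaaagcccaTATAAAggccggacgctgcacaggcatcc
Gkn3: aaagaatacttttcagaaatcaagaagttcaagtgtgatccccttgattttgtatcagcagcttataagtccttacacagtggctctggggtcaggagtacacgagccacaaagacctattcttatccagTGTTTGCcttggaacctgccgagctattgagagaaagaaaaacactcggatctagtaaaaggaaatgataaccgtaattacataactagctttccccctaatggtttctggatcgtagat
Gkn2 holds TATAAA between 29 and 24 bases before its start, a motif found in 12.4% of 32851 RefSeq windows of the same length. Gkn1 and Gkn2 each hold 1 AGATAA, found in 9.99% of the windows, and Gkn3 holds none. Vsig1, Capn8 and Capn9, which also fell, hold no AGATAA either. Gkn2 and Gkn3 each hold 1 TGTTTNC (17.8% of the windows). Gkn1 holds 1 CACCC (52.0% of the windows), as do Vsig1, Capn8 and Capn9. These matches describe letters and not sites of binding, and their part in the ratios was not tested. RefSeq windows were at hand for 6 of the 10 genes.

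Of the 10 genes, 8 fell in the tumours and 0 rose in the limma fit, where 0 were higher even at an unadjusted p under 0.05. Of all 19434 genes tested, 9.68% were called lower and 9.33% higher, where a call needs an adjusted p under 0.05 and at least a 2-fold difference in the limma fit. The median log2 ratio of tumour over pool was -3.50 over the 10 genes and 0.05 over all genes. Psca, Gkn2, Gkn1, Capn9, Tff1, Capn8, Tff2 and Vsig1 fell, while Gkn3 and Tff3 did not pass the test. For each of the 8, every tumour signal lay below every pool signal, which held for 29.7% of all genes, while every tumour signal lay above every pool signal for 33% of them. All 10 genes passed the filter on dim probes and were well above background in both colours on all 3 arrays. In bulk tissue, fewer cells of a type and less RNA per cell cannot be told apart. The pool is 1 sample, so the spread among normal mice is not in any test, and every tumour was red, so a dye effect stays in every ratio.

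**Figure D1:**
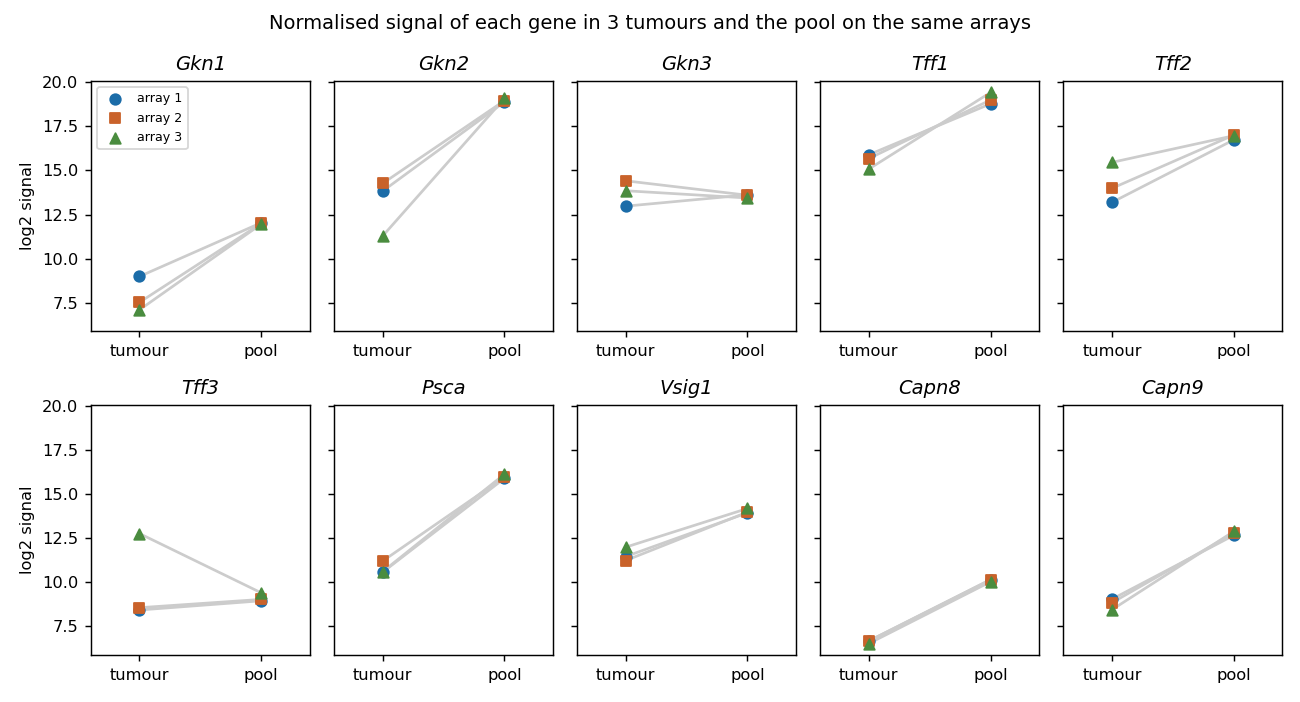
Normalised log2 signal of the 10 genes (y axis) in each tumour and in the pool aliquot on the same array (x axis); grey lines join the 2 colours of 1 array, and marker shapes stand for arrays 1 to 3. All tumour points lie below all pool points for 8 genes, and the groups overlap for Gkn3 and Tff3.

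Gkn2 had the lowest mean log2 ratio of the 10 genes, a rank that rests on tumour 3. Its log2 signals were 13.82, 14.26 and 11.27 in tumours 1, 2 and 3, against 18.87, 18.95 and 19.08 in the pool on the same arrays. Tumour 3 was far below tumours 1 and 2, and the tumours and the pool did not overlap. The log2 ratios were -5.05, -4.69 and -7.81, with a mean of -5.85 ± 1.70 (SD, n = 3), which is 57.7-fold lower (limma, adjusted p = 0.00424). Its probe lies on chromosome 6 of mm9 from 87329285 to 87329344 and was printed 10 times on each array. Over those 10 spots the log2 ratio had an SD of 0.05, 0.04 and 0.06 on arrays 1, 2 and 3, so the gap between tumour 3 and the others is much wider than the spread between spots. Without tumour 3 the mean was -4.87, above that of Psca at -5.05.

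Gkn1 also fell. Its log2 signals were 8.99, 7.52 and 7.09 in tumours 1, 2 and 3, against 12.03, 11.99 and 11.96 in the pool. All tumours were below the pool, and tumour 1 had the highest tumour signal. Its log2 ratios were -3.04, -4.47 and -4.86, with a mean of -4.13 ± 0.96 (SD, n = 3) and a fold of 17.5 lower (limma, adjusted p = 0.00260).

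Gkn3 departed from the other gastrokines. It had log2 signals of 12.97, 14.41 and 13.85 in tumours 1, 2 and 3, against 13.61, 13.59 and 13.44 in the pool. With loess, tumour 1 was below the pool and tumours 2 and 3 were above it, so the groups overlapped. Its log2 ratios were -0.64, 0.82 and 0.41, with a mean of 0.20 ± 0.75 (SD, n = 3) and a 95% interval from -0.62 to 1.01 (limma, adjusted p = 0.622). This gene was called higher, at 1.79, when each array was centred on its median in place of loess (limma, adjusted p = 0.00945). Under that setting 39.9% of all genes were called higher. Before loess the log2 ratios of Gkn3 were 1.14, 3.2 and 2.64 in tumours 1, 2 and 3. Centred on the array median they were 0.74, 2.55 and 2.08, so that every tumour lay above the pool. The Gkn3 probe (chromosome 6, 87333375 to 87333434, minus strand, mm9) is 4030 bases from that of Gkn2, and the Gkn1 probe (87295651 to 87295710, minus strand) is 33574 bases from it on the other side. Within each tumour, Gkn3 had a higher log2 ratio than Gkn2 and Gkn1. The difference of Gkn1 minus Gkn3 was -2.40, -5.29 and -5.28 in tumours 1, 2 and 3, and that of Gkn2 minus Gkn3 was -4.41, -5.51 and -8.22.

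Among the trefoil factors, Tff1 fell, with log2 signals of 15.89, 15.67 and 15.08 in tumours 1, 2 and 3, against 18.78, 18.99 and 19.42 in the pool. The tumours and the pool did not overlap, and tumour 3 had the lowest signal. Per tumour the log2 ratios were -2.89, -3.32 and -4.35, with a mean of -3.52 ± 0.75 (SD, n = 3), or 11.5-fold lower (limma, adjusted p = 0.00219). A dimmer Tff1 probe gave -3.58 ± 0.68 (SD, n = 3), but it shares 55 of its 60 bases with the first and is no independent measurement. Both probes are placed on chromosome 5 of mm9 by the file (143285582 to 143285641 and 143285577 to 143285636, minus strand), whereas the RefSeq table puts Tff1 on chromosome 17. Signal from a near-identical copy cannot be told apart from that of Tff1 itself. No tested gene had a higher mean log2 signal over both colours than Tff1, so the loess curve has few spots to rest on there. The correction it applied to Tff1 was 2.40, 2.82 and 2.86 log2 units on arrays 1, 2 and 3, and the log2 ratios before it were -0.49, -0.50 and -1.48. For the other 9 genes it was 1.22 to 2.72 over the 3 arrays. With centring on the array median the mean was -1.36, and Tff1 was still called.

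Tff2 fell less, and unevenly, with log2 signals of 13.19, 13.98 and 15.45 in tumours 1, 2 and 3, against 16.73, 17.00 and 16.97 in the pool. Tumour 3 came nearest to the pool, and with loess no tumour reached it. Per tumour the log2 ratios were -3.54, -3.02 and -1.51, with a mean of -2.69 ± 1.06 (SD, n = 3), or 6.46-fold lower (limma, adjusted p = 0.00924). Without tumour 3 the mean was -3.28. Loess moved Tff2 by 2.03, 2.57 and 2.67 log2 units. Before loess the log2 ratios of Tff2 were -1.51, -0.45 and 1.16 in tumours 1, 2 and 3. Centred on the array median they were -1.90, -1.10 and 0.60, so that tumour 3 lay above the pool, and the call was lost at a mean of -0.80 (limma, adjusted p = 0.202). The probe spans 825 bases of chromosome 17 (31279256 to 31280080, minus strand, mm9), wider than its own 60 bases.

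Tff3 was high in 1 tumour only, with log2 signals of 8.43, 8.56 and 12.77 in tumours 1, 2 and 3, against 8.95, 9.03 and 9.40 in the pool. With loess, tumours 1 and 2 were slightly below the pool and tumour 3 was far above it. The log2 ratios were -0.52, -0.47 and 3.36, with a mean of 0.79 ± 2.23 (SD, n = 3) and a 95% interval from -1.5 to 3.1 (limma, adjusted p = 0.487). Before normalisation the mean spot signals at this probe were 459, 748 and 13280 in the tumours, against 267, 279 and 346 in the pool. The SD over tumours was larger than that of 99.9% of all genes tested. Without tumour 3 the mean was -0.50 (limma, adjusted p = 0.0553), so the sign of the loess mean rests on that tumour. Before loess the log2 ratios of Tff3 were 0.74, 1.36 and 5.19 in tumours 1, 2 and 3. Centred on the array median they were 0.34, 0.7 and 4.62, so that every tumour lay above the pool, and Tff3 was not called. The Tff3 probe lies on chromosome 17 from 31262279 to 31262338 (minus strand, mm9), 16917 bases from that of Tff2. Tff3 had the highest log2 ratio of the 3 trefoil factors in every tumour. In tumour 3 the log2 ratio of Tff1 was below and those of Tff2 and Tff3 were above their values in tumours 1 and 2.

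**Figure D2:**
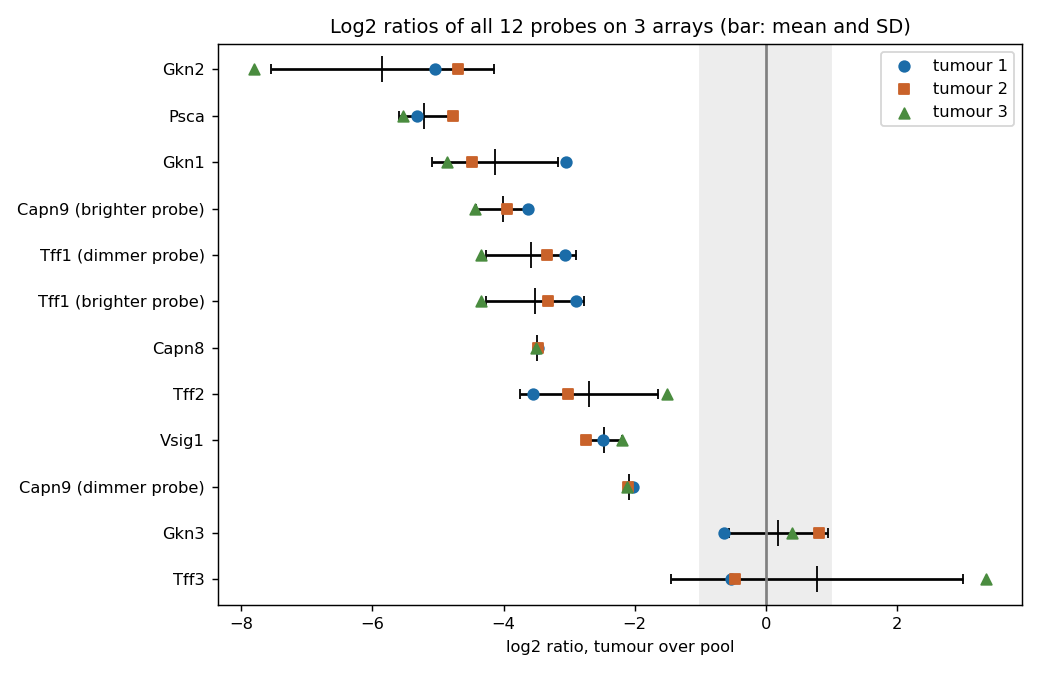
Log2 ratio of tumour over pool (x axis) for all 12 probes (y axis), with 1 marker per tumour, and a black bar for the mean and SD over 3 arrays; the grey band spans less than a 2-fold difference. The 10 probes of the other 8 genes lie to the left of the band in every tumour; Gkn3 lies within it, and Tff3 lies within it in tumours 1 and 2 and at 3.36 in tumour 3.

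Psca fell by a similar amount in all 3 tumours, with log2 signals of 10.57, 11.20 and 10.60 in the tumours, against 15.89, 15.97 and 16.13 in the pool, with no overlap. The log2 ratios were -5.32, -4.77 and -5.53, with a mean of -5.21 ± 0.39 (SD, n = 3), or 36.9-fold lower (limma, adjusted p = 0.000447; chromosome 15, 74546879 to 74546938, mm9). Vsig1 fell less. Its log2 signals were 11.46, 11.23 and 11.99 in the tumours, against 13.94, 13.98 and 14.18 in the pool. Its log2 ratios were -2.48, -2.75 and -2.19, with a mean of -2.47 ± 0.28 (SD, n = 3), or 5.55-fold lower (limma, adjusted p = 0.000938; chromosome X, 137473415 to 137473474, mm9). With centring on the array median Vsig1 was at -0.995, just short of a 2-fold difference, and was not called although its adjusted p was 0.00509 in limma.

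Both subunits of the gastric calpain complex fell. Capn8 had log2 signals of 6.67, 6.67 and 6.53 in the tumours, against 10.15, 10.15 and 10.03 in the pool. Its log2 ratios were nearly the same in the 3 tumours, at -3.48, -3.48 and -3.51, with a mean of -3.49 ± 0.02 (SD, n = 3), or 11.2-fold lower (limma, adjusted p = 0.000308; chromosome 1, 184562310 to 184562369, mm9). The lowest log2 signals well above background in red were 5.85, 5.41 and 5.60 on arrays 1, 2 and 3, so the tumour signals of Capn8 were near the dim end, where the offset of the background correction pulls ratios together. Its ratio was -4.63 with Feature Extraction's processed signals, and the authors' deposited table lists -4.73, -4.43 and -4.72 for tumours 1, 2 and 3.

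Capn9 had log2 signals of 9.04, 8.84 and 8.45 in the tumours, against 12.66, 12.79 and 12.88 in the pool, with no overlap. Its log2 ratios were -3.62, -3.94 and -4.44, with a mean of -4.0 ± 0.41 (SD, n = 3), or 16-fold lower (limma, adjusted p = 0.000651; chromosome 8, 127142567 to 127142626, mm9). A second Capn9 probe, at 127129744 to 127129803, was dim and well above background in red on 1 of 3 arrays. It gave -2.08 ± 0.05 (SD, n = 3; limma over all 24164 kept probes, adjusted p = 0.000581), and 9.12% of those probes were called lower. Both probes of Capn9 were lower in every tumour. On the other 2 arrays the dim probe's tumour signal was not well above background, so its size is not set against that of the brighter probe. The exon or UTR at any of the probes was not assigned, since no annotation of mm9 was used here.

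Ordered by log2 ratio, the genes ran Gkn2, Psca, Gkn1, Capn9, Tff1, Capn8, Tff2, Vsig1, Gkn3 and Tff3. Of the 9 neighbouring pairs, 3 kept the same order in all tumours: Psca before Gkn1, Capn9 before Tff1, and Vsig1 before Gkn3. The step from Vsig1 to Gkn3 was the widest, at 2.67 ± 0.87 log2 units (SD, n = 3). The other 8 steps were 0.03 to 1.08. Of these, 6 were smaller than their own SD over tumours, so those neighbours did not differ beyond their spread. The 5 other called genes whose log2 ratios over the 3 arrays lay closest to the median profile of the 10 genes (-3.26, -3.40 and -3.93) were Resp18, Cpm, Gga2, Dmbx1 and Bex2, at Euclidean distances of 0.25, 0.34, 0.34, 0.36 and 0.40.

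Of 9 further pit-cell genes measured from a list of 10, 7 were called lower and 1 higher, and the list's median log2 ratio was -1.96. The fallen genes included Muc5ac, the gel-forming mucin of pit cells (-5.26 ± 0.35), the sulfotransferase gene Sult1c2 (-3.31 ± 0.49) and Sytl2, which acts in granule release (-2.36 ± 0.09; SD, n = 3 throughout). The galectin gene Lgals4, named as the 1 call in that direction after its value was seen, was called higher at 1.94 ± 0.75. With centring on the array median, 3 of the 9 were called lower and the list's median was -0.48, while the median of all genes was 0.77. Of 17 genes listed as regulators of these cells, transcription factors apart from the receptor Cxcr4, 8 were called lower and 2 higher, with a median of -1.01. Klf4 (-2.85 ± 0.32) and Foxa3 (-2.58 ± 0.29) fell, and Onecut2 rose (2.95 ± 0.54). Cxcr4, named here after its value was seen, was also called higher, but its pool signal was well above background on 0 of 3 arrays. With both colours required to be well above background, 15 of the list were measured, 9 called lower and 1 higher. The count called lower was 2 with centring on the array median, where the list's median was 0.15.

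For genes of mucin folding, glycosylation and secretion in general, the count of calls depended on the tumours included. Of 10 measured, 4 were called lower and 0 higher in limma (7 lower and 0 higher at an unadjusted p under 0.05), with a median of -1.18. The share of all genes passing that unadjusted cut is not given here, so the count of 7 is not read as a result about the list. Without tumour 3, 7 were called lower and 1 higher, with a median of -1.73. Leaving out tumour 1 or tumour 2 instead gave 3 lower and 0 higher in each case. Galnt6 (-2.54 ± 0.73) and Gcnt3 (-2.02 ± 0.55), which encode enzymes of mucin glycosylation, fell. Agr2, a disulfide isomerase needed for mucin folding, had log2 ratios of -2.35, -2.42 and -0.34 in tumours 1, 2 and 3 and was called lower with all 3 tumours at -1.71 (limma, adjusted p = 0.0406) but not without tumour 1 (adjusted p = 0.126) or tumour 2 (adjusted p = 0.141). A further 3 genes, chosen for this shape after their values were seen, were not called: Spdef, a transcription factor of mucous cells (-2.01, -1.78 and -0.06), Ern2, a stress sensor of mucous cells (-1.44, -1.36 and 0.07), and Creb3l4 (-1.26, -2.13 and 0.15). Other genes of the list were lowest in tumour 3: Galnt6 (-1.87, -2.42 and -3.31), Gcnt1 (1.56, 1.17 and -2.28) and Sec11c (-0.43, -0.82 and -0.85). Gcnt1 and Sec11c were named after their values were seen and were not called. The tumour signal of Gcnt1 was well above background on 2 of 3 arrays, and Sec11c was nearly the same in tumours 2 and 3. Tumour 3 is also the tumour in which Tff2 and Tff3 were highest, and the part of these list genes in that was not tested. With centring on the array median, 1 of the 10 was called lower and the list's median was 0.09.

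Genes listed for mucous neck cells and for spasmolytic polypeptide-expressing metaplasia, a mucous state of injured glands named after Tff2, did not share 1 direction: 5 of the 9 measured ones were called higher and 1 was called lower (median 1.39). The neck-cell mucin gene Muc6 fell (-3.20 ± 0.52), as Tff2 did, whereas Wfdc2 (3.64 ± 0.15) and Cd44 (3.59 ± 0.49) rose. Goblet-cell genes, set beside Tff3 here, were called in both directions. Of 6 measured in a list of 10, 2 were called lower, Spink4 (-2.86 ± 1.05) and Klk1 (-2.58 ± 1.03), and Fcgbp was called higher (2.31 ± 1.01). Their median was 0.21, 1.34 and 0.91 in tumours 1, 2 and 3, and their summed linear signal ran from 4758 to 26440 in the tumours, against 9298 to 9962 in the pool. Spink4 was at -4.02 in tumour 3, and Clca1 and Zg16, named after their values were seen, were highest in tumour 2, at 4.11 and 3.07. Cdx2, also named after its values were seen, was highest in tumour 3 as Tff3 was, at 0.59, 0.55 and 1.94 in tumours 1, 2 and 3. The pool signal of Cdx2 was well above background on 0 of 3 arrays, so it passed the filter through the tumour colour alone. Clca1, Zg16 and Cdx2 were not called. With both colours required to be well above background, 4 of the list were measured, 2 called lower and 1 higher. The goblet-cell mucin gene Muc2 and 3 more of the list did not pass the filter on dim probes.

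**Figure D3:**
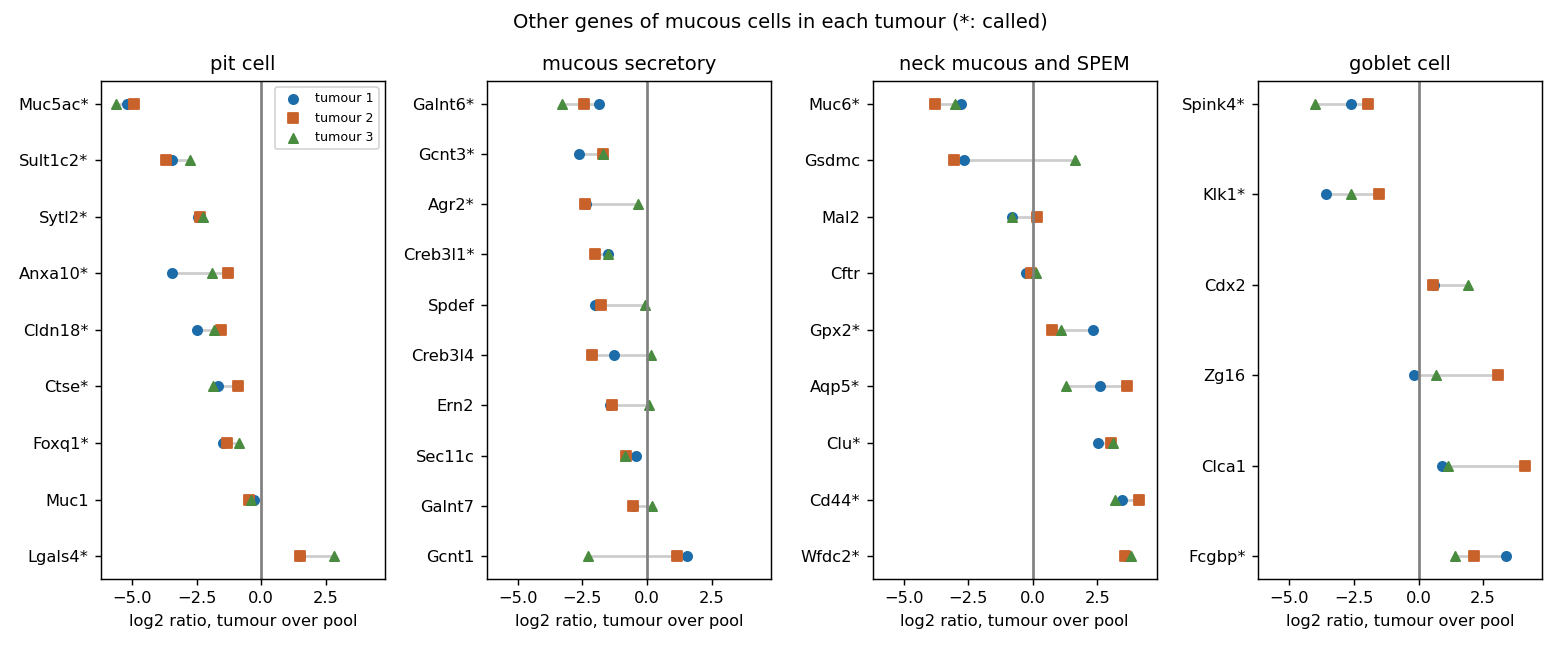
Log2 ratio of tumour over pool (x axis) for the measured genes of 4 lists (y axis), with 1 marker per tumour and an asterisk for genes called in the limma fit. Agr2, Spdef, Ern2 and Creb3l4 lie near 0 in tumour 3 and below -1 in tumours 1 and 2.

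Of 43 other measured genes of the same protein families, 6 were called lower and 4 higher, or 14% and 9.3%, beside 9.68% and 9.33% of all genes. Of 12 further calpain genes and their partners, 2 were called lower, Capn13 (-1.75 ± 1.03) and Capn10 (-1.11 ± 0.15), and 0 higher in limma, with 2 higher at an unadjusted p under 0.05; 4 passed at an adjusted p under 0.05 without reaching a 2-fold difference. Neither of the 2 was called lower with centring on the array median. Of 16 further Ly6-family genes, the family of Psca, 2 were called lower and 2 higher, among them Cd59a (-1.76 ± 0.31) and the urokinase receptor gene Plaur (2.24 ± 0.21). Cd59a lost its call with centring on the array median, at -0.64. Of 12 genes of the family of Vsig1, 2 were called lower and 2 higher. Igsf5 (-2.52 ± 0.34) and Vsig2 (-2.25 ± 0.15) fell and Gpa33 rose (3.24 ± 0.34), and Vsig2 lost its call with centring on the array median. Of 3 measured genes with a BRICHOS domain other than gastrokines, 0 were called in limma and 1 passed at an unadjusted p under 0.05, Itm2b at -0.51 ± 0.31. With centring on the array median, 3 calpain genes, 7 Ly6-family genes, 6 genes of the family of Vsig1 and all 3 BRICHOS genes were called higher, and 0, 1, 1 and 0 were called lower. Under that setting 39.9% of all genes were called higher and 2.86% lower, so these counts are not read as a rise of the families.

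Markers of other cells also differed. Of 10 parietal cell genes 9 were called lower, with a median of -4.01, and of 5 chief cell genes 5 were, with a median of -4.92. Their summed linear signals were 6108 to 10510 in the tumours against 407200 to 428500 in the pool for parietal genes, and 17700 to 20110 against 911500 to 1066000 for chief cell genes. Some parietal genes passed the filter through the pool colour alone. With both colours required to be well above background, 7 parietal genes were measured and 7 were called lower. Of 13 general epithelial genes, 6 were called higher and 3 lower, with a median of -0.12 and summed signals of 146400 to 253600 in the tumours and 245700 to 322700 in the pool; the median was 1.84 with centring on the array median. Cldn7, a claudin of epithelial junctions, rose (3.94 ± 0.25). The 3 called lower, named after their values were seen, were Krt8 (-1.56 ± 0.80), Krt19 (-1.27 ± 0.78) and Spint2 (-1.03 ± 0.22); all 3 calls were lost with median centring, with spike-in centring and without tumour 1. Of 10 fibroblast genes 9 were called higher, with medians of 3.25, 2.90 and 1.5 in tumours 1, 2 and 3 and summed signals of 48490 to 160400 in the tumours against 16400 to 18050 in the pool. Of 9 immune genes 5 were called higher, with summed signals of 36770 to 185900 against 4765 to 5658. With both colours required, 6 immune genes were measured and 4 were called higher. The part of stroma, immune cells and lost parietal and chief cells in the ratios of the 10 genes was not tested. Cdh1 had -4.24 ± 0.85 (SD, n = 3) and Trp53 -0.21 ± 0.15 (SD, n = 3); whether these probes lie in the deleted parts is not given in the sources used here.

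For 8 of the 10 genes the direction of the mean held in every setting tried, and the size depended on scaling. With centring on the array median in place of loess, the means were -3.90 for Gkn2, -3.65 for Psca, -2.98 for Gkn1, -2.79 for Capn9, -2.52 for Capn8 and -1.36 for Tff1. That setting moved the median of all genes to 0.77, so these 6 genes, Tff2 and Vsig1 all lay below it. Under it 6 of the 10 were called lower, against 2.86% of all genes.

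**Figure D4:**
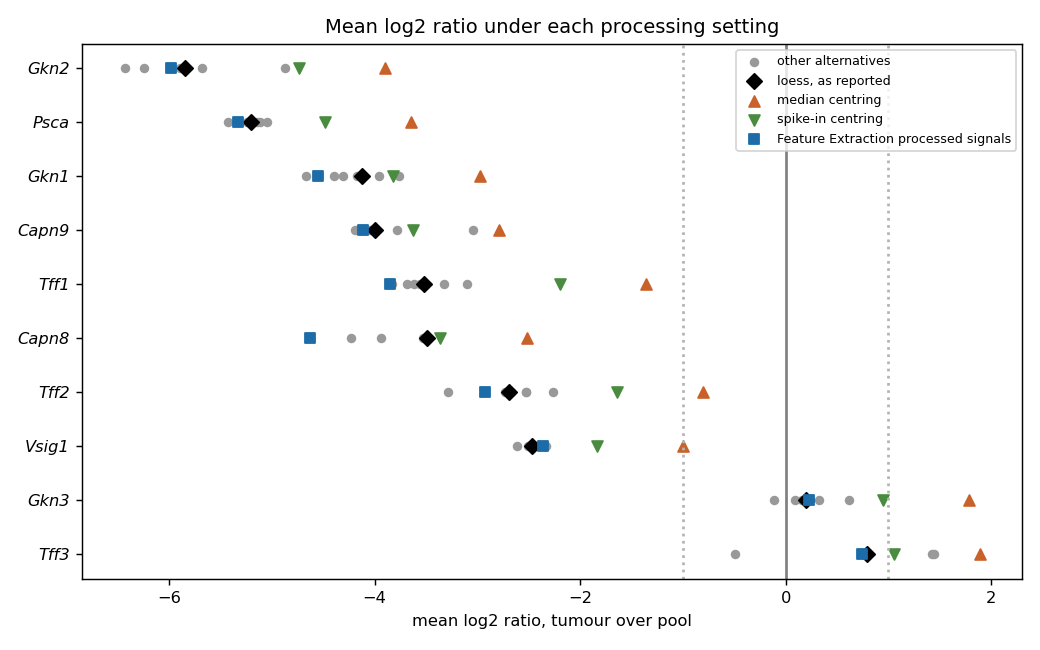
Mean log2 ratio of tumour over pool (x axis) for each gene (y axis) under the reported setting and 15 alternatives, with dotted lines at a 2-fold difference. Median centring gives the highest value for each gene; Tff2, at -0.80, and Vsig1, at -0.995, lie at or inside the line under it.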

How the data were processed

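Each of 3 two-colour Agilent arrays compared 1 tumour (red) with the pool (green), from 250 ng of total RNA with an integrity number above 7, per the labels. The deposited scanner files hold each spot's mean intensity and its local background (median), from Agilent's Feature Extraction (version 9.5.3 per the submitters' processing notes, 10.7.3.1 per the file headers). The software's processed intensity had background subtracted and dyes normalised, and the log10 ratio in the same files runs red over green, per the file headers. Values in the authors' deposited table lay within 0.01 of that ratio on the log2 scale at 99.8% of filled probes on each array, so the table holds log2 tumour over pool with no further centring, with column medians of -0.15, -0.13 and -0.11. It is blank for 48.3 to 49.6% of probes. Coordinates are mm9, per the file headers.

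Signals were corrected with normexp (offset 50), which pulls dim ratios towards 0, then normalised by loess in limma 3.58.1 (R 4.3.3), where control spots had weight 0. Outlier spots (157 to 190 of the gene spots per array, none of a gene described here) were left out, and the rest averaged per probe. The filter kept a probe if 1 colour, red or green, had it well above background on every array, and each gene took the values of its brightest such probe. Names come from a RefSeq table of GRCm38.p6 through the accession for 26055 of 39429 probes. Ratios were tested against 0 (lmFit, eBayes, two-sided, Benjamini-Hochberg over genes), and the test was tried on simulated data. Signals by colour are after loess and Aquantile scaling. The number of arrays limits the precision. Shares well above background were 64.0 to 66.8% in red and 52.5 to 54.2% in green, and 0 gene spots were saturated. The text names the 10 genes and all their probes, up to 3 called members of each other list with the largest absolute log2 ratio (the brightest where none was called), Cdh1 and Trp53, and the 5 named genes nearest in pattern; from those 5, unnamed and clone-named genes were left out. Genes outside this rule are marked in the text as named after their values were seen. The genes and lists were chosen with earlier results of these data known, and lists share some genes. Counts at an unadjusted p under 0.05 are given without the share of all genes passing that cut, so they are not results about a list.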

Additional observations from a re-analysis of the deposited data

How the results depend on the processing

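Alternatives were fitted for background correction, normalisation, the filter on dim probes, the probe of a gene, the values, the variance model and each tumour left out. The number of the 10 genes called lower was 8 under all of them except centring on the array median, where it was 6. Leaving out 1 tumour at a time gave -0.12 to 0.61 for Gkn3 and -0.50 to 1.45 for Tff3. Gkn3 was at -0.12 without replicate 2 and Tff3 at -0.50 without replicate 3, each opposite in sign to its mean over 3 tumours and not called. With spike-in centring Tff3 was called at 1.05 (limma, adjusted p = 0.00560), a setting whose estimated prior degrees of freedom were infinite, so that the gene's own spread did not enter the test. Genes called lower were 15.9% of the genes tested on Feature Extraction's processed signals, 17.7% on the authors' deposited ratios, 2.86% with median centring and 5.78% with no filter, against 9.68% as reported. Of all calls, 93.3% were higher with median centring, against 49.1% with loess. No paired analysis was possible because the tumours form 1 group set against 1 pool. Signal over background limits Capn8 and the dimmer Capn9 probe, whose tumour signals lie near background.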
